A study of Homo sapiens with 2 samples.

Results

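The small nucleolar RNA (snoRNA) host genes were examined in RNA-seq data of Huh7 cells after BRF2 knockdown. The set was taken by name: every gene whose symbol is SNHG followed by a number, together with GAS5, ZFAS1, EPB41L4A-AS1 and TAF1D. This gave 32 of the 61541 genes in the table, of which 30 had reads and 29 had at least 10 reads over both libraries. Names alone define the set and no measured value entered the rule, although it was chosen with earlier results of these data known. In GENCODE release 29 (GRCh38), 30 of the 32 are noncoding genes. TAF1D and SNHG32 (C6orf48 in that release) are protein-coding.

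Huh7 is an established line of human liver carcinoma cells. One library (Huh7-NC) came from cells given a control siRNA, and the other (Huh7-si) from cells given an siRNA against BRF2. BRF2 is a subunit of the initiation factor that brings RNA polymerase III to promoters such as those of U6 and 7SK. The study lists a pair of siRNAs against BRF2 and does not name the one used here, and the time of harvest was not given in the sources used here. With 1 library per condition of 1 cell line, no difference below has a replicate check.

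The Huh7-NC library held 22852648 reads on genes and the Huh7-si library 22089016. CPM is a gene's reads scaled to that total, and TPM is a deposited level that is also scaled for length. A fold change is the ratio of CPM, Huh7-si over Huh7-NC, given as log2 with its 95% exact interval. With a fixed length per gene, the CPM and TPM folds would differ by the same amount for every gene. Among the hosts, CPM less TPM on the log2 scale ran from -0.53 (SNHG26) to 0.49 (SNHG20). The length behind TPM was therefore not the same in both libraries. A gene was called when its fold reached 2 and its p from a two-sided exact binomial test on the reads, unadjusted, was under 0.05. The test and the intervals cover counting error alone and compare the 2 libraries, not the conditions. BRF2 itself had 1280.52 estimated reads in Huh7-NC against 363.72 in Huh7-si, for a log2 fold change of -1.77 (-1.94 to -1.60). All 12 hepatocyte markers examined had at least 10 reads, with a median log2 fold change of -0.05. APOB alone was called among them (log2 fold change 1.04), although APOA1 was called lower with the TMM and median-of-ratios scalings, under which APOB was not called. Of 8 markers of blood, endothelial, bile duct and stromal cells, 3 reached 10 reads: CD68 with 235.37 and 244.36 reads, PECAM1 with 60 and 63, and COL1A1 with 76 and 229, the last called higher.

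Most human snoRNAs lie in introns of other genes and are cut out of the spliced intron. C/D snoRNAs guide ribose methylation and H/ACA snoRNAs guide pseudouridylation of ribosomal RNA, while their relatives in Cajal bodies act on spliceosomal RNAs. The exons of the noncoding hosts are joined into an RNA with little coding potential. Many hosts, like the ribosomal protein genes, start transcription within a run of pyrimidines (a terminal oligopyrimidine, or TOP, start), and several spliced host RNAs are known to be read by ribosomes and removed by nonsense-mediated decay (NMD). A read on a host gene was taken here as a read of the host RNA and not of the snoRNA. Some listed lengths nearly fill the gene, as for SNHG1 with 3771 bases at chr11:62851988-62855914. Reads from introns or unspliced RNA may therefore be included, and spliced RNA was not counted apart.

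Because TOP starts are a known feature of these genes, the start sites are shown first. RefSeq (GRCh38.p14) gave a promoter for 28 of the 32 genes. The letters CTTT were searched within 10 bases either side of the annotated start, on the sense strand. Each line below runs 5′ to 3′ on the gene's strand, from 10 bases before the start to 20 bases from the start on, with CTTT in capitals where it was found. The first 4 lines are hosts with CTTT whose reads differed little or were lower in Huh7-si.
SNHG29, chr17:16438977-16439006, plus strand: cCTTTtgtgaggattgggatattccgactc
SNHG16, chr17:76557754-76557783, plus strand: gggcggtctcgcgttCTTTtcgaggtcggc
SNHG5, chr6:85678714-85678743, minus strand: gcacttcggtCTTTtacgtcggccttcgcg
ZFAS1, chr20:49278632-49278661, plus strand: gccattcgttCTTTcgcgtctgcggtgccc

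The next 3 lines are called hosts that also have CTTT.
SNHG4, chr5:139274091-139274120, plus strand: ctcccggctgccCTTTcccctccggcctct
SNHG19, chr16:2155339-2155368, minus strand: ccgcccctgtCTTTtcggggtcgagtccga
SNHG12, chr1:28581854-28581883, minus strand: gcttcagcgccCTTTctccccgccgcattc

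The last 3 lines are hosts without CTTT whose reads were higher in Huh7-si.
SNHG22, chr18:49814013-49814042, plus strand: tccgctgggcagaggcttgggccgccgagc
SNHG3, chr1:28505933-28505962, plus strand: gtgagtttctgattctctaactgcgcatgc
SNHG1, chr11:62855866-62855895, minus strand: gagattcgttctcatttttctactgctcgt

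Of the 25 hosts with a RefSeq promoter and at least 10 reads, 10 (40%) had CTTT on the sense strand, against 10.4% of all 35116 promoters in the table. On the reverse strand, 1 of the 25 had it, against 7.85% of all promoters. Of 38 protein-coding snoRNA hosts, 15 (39.5%) had it on the sense strand. The share was alike in both kinds of host. The E-box CACGTG, read on either strand over 250 bases before to 50 after the start, was found in 2 of the 25 (SNHG7 and SNHG30) and in 7.26% of all promoters. A match is a description of the letters only. For 15 of the 25 hosts, the RefSeq start lies more than 10 bases from the GENCODE start, at -163 bases from it for GAS5, 1259 for SNHG12, 1927 for SNHG20, 42896 for TAF1D and -154975 for SNHG14 (negative is upstream). The windows, that of SNHG12 above included, depend on the annotation.

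The 10 hosts with CTTT were divided, 5 above and 5 below 0 in log2 fold change, with a median of 0.02. They ranged from -0.41 (SNHG29) to 1.45 (SNHG4). Of the 15 hosts without it, 14 were above and 1 (SNHG7) was below 0, with a median of 0.49. With the TMM scaling, SNHG30 (-0.15) among those without CTTT and ZFAS1 (-0.08) among those with it turned negative. SNHG6 (-0.25), SNHG9 (-0.04), SNHG15 (0.09) and SNHG25 (1.05) had no promoter here and are in neither group. The difference between these groups was not tested, and the 2 groups overlapped in range. SNHG10, SNHG21, SNHG26, SNHG30 and SNHG31, all without CTTT, had under 1000 reads and an interval that included 0. So did SNHG8 among those with CTTT. A host without CTTT in its window is not thereby shown to lack a TOP start, so the groups are not TOP and other hosts.

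Among the 30 hosts with reads, 4 were called higher in Huh7-si and 0 were called lower. At the same thresholds, 10.4% of the 26379 genes with reads were called higher and 1.02% were called lower. With the TMM scaling, 3 hosts were called higher and 0 lower, and for all genes the numbers changed from 2742 higher and 270 lower to 1822 and 572. The median log2 fold change was 0.44 over the 29 hosts with at least 10 reads, against 0.21 for the 17921 genes with as many reads, 0.56 for 2594 GENCODE long noncoding genes and 0.15 for protein-coding genes. Of those long noncoding genes, 27.6% were called higher.

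SNHG22, which hosts the Cajal body RNA SCARNA17, had the highest fold among the 29 hosts. Its reads numbered 6 in Huh7-NC against 55 in Huh7-si, for a log2 fold change of 3.25 (2.03 to 4.75; exact binomial p = 1.82e-11), and TPM values of 1.74 and 16.27. Its gene (ENSG00000267322, chr18:49814023-49851059, plus strand, GRCh38) overlaps MYO5B on the opposite strand, and MYO5B had 103 and 125 reads. The host was close to the limit of detection with the control siRNA and clearly detected in the other library.

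SNHG4 hosts SNORA74A and SNORA74D and lies at chr5:139274102-139284899 on the plus strand (ENSG00000281398). Its estimated reads were 95.79 in Huh7-NC against 253.24 in Huh7-si, for a log2 fold change of 1.45 (1.10 to 1.80; exact binomial p = 9.88e-19). Its TPM was 2.77 and 10.55, a larger ratio (1.93 on the log2 scale). It overlaps MATR3, an RNA-binding protein of the nuclear matrix, on the same strand. MATR3 had 2775.77 and 2997.73 reads (log2 fold change 0.16), so reads of the 2 genes may have been shared out between them.

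SNHG19, the host of SNORD60, lies at chr16:2154797-2155358 on the minus strand (ENSG00000260260). It had 33 and 76 reads, a log2 fold change of 1.25 (0.65 to 1.89; exact binomial p = 1.94e-05). It is the only called host that overlaps no other gene with at least 10 reads.

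SNHG12 hosts 3 H/ACA snoRNAs and the C/D snoRNA SNORD99 at chr1:28578538-28583132 on the minus strand (ENSG00000197989). It had 192 reads in the first library against 372.05 in the second, for a log2 fold change of 1.003 (0.75 to 1.26; exact binomial p = 9.62e-16). This fold lies at the threshold. With the TMM scaling the value was 0.78, with the median of ratios 0.80 and without the 100 top genes 0.98, and the call was lost in all 3.

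**Figure D1:**
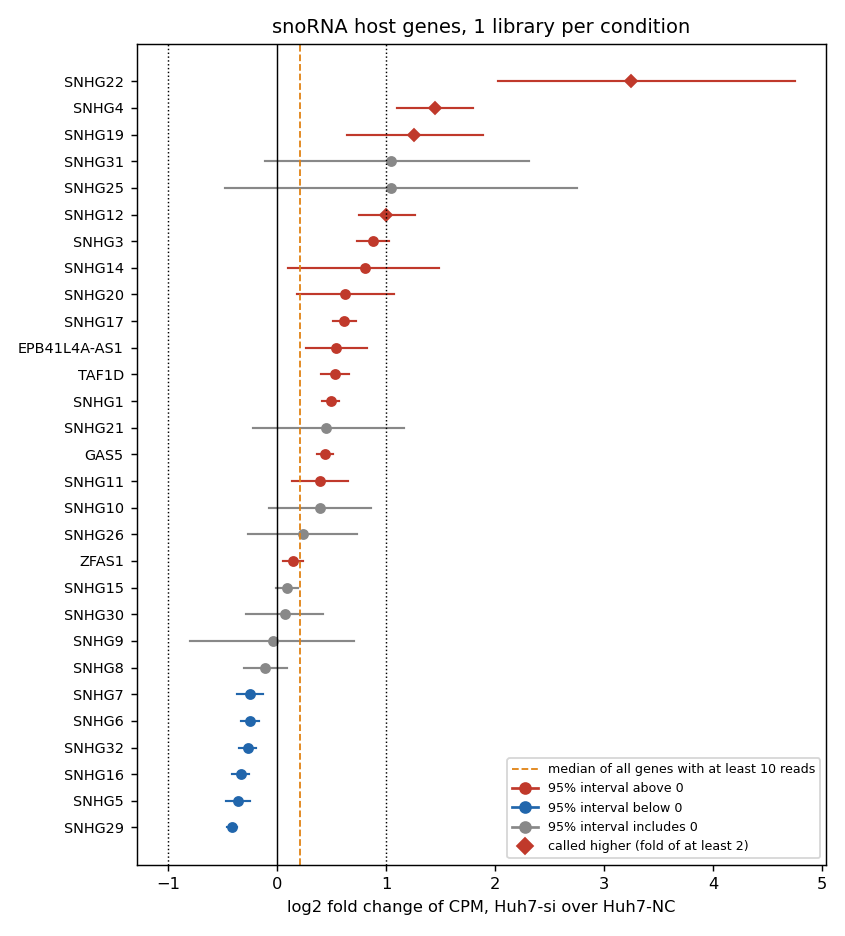
Log2 fold change of CPM, Huh7-si over Huh7-NC (horizontal axis), of the 29 hosts with at least 10 reads, in order of fold. Points are the 2 libraries' ratio, bars are 95% exact intervals for counting error, diamonds are the 4 called hosts, dotted lines mark 2-fold and the dashed line the median of all genes (0.21). The intervals of 14 hosts lie above 0, of 6 below 0 and of 9 across 0, and the 6 lower hosts lie within a narrow range from -0.41 to -0.24.

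A further 10 hosts were higher in Huh7-si by less than 2-fold with an interval above 0. SNHG3, the host of SNORA73A and SNORA73B (the U17 snoRNAs, which act in the processing of 18S ribosomal RNA), had 583.85 and 1040.03 reads, a log2 fold change of 0.88 (0.73 to 1.03). SNHG17, the host of the SNORA71 family, had 1271.17 and 1884.01 reads (0.62, 0.51 to 0.72). Both reached over 1000 reads over the libraries, so counting error was small beside the difference.

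TAF1D encodes a subunit of SL1, the RNA polymerase I selectivity factor, and carries 8 snoRNAs. It had 884 and 1233.73 reads, a log2 fold change of 0.53 (0.40 to 0.66). SNHG1, the host of SNORD22 and SNORD25 to SNORD31, had 2462 and 3347 reads (0.49, 0.42 to 0.57). GAS5, named for its accumulation in growth-arrested cells and known as a decoy of the glucocorticoid receptor, had 2548 and 3336.28 reads (0.44, 0.36 to 0.51). GAS5 and SNHG1 each host at least 8 snoRNAs of the C/D class, and their read numbers lay close together in both libraries, while by TPM GAS5 was the higher (289.41 and 360.75, against 138.73 and 181.43 for SNHG1).

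The others of this kind had fewer reads or smaller folds. SNHG14 is the long host of the SNORD115 and SNORD116 clusters at the imprinted Prader-Willi locus. It had 29.53 and 50.07 reads (log2 fold change 0.81, 0.10 to 1.49), a very low level for a listed length of 24124 bases. Its GENCODE span, chr15:24978583-25419462, is far longer than the listed length. SNHG20, the host of SCARNA16, had 73.10 and 109.08 reads (0.63, 0.19 to 1.08), while its TPM was nearly level at 3.91 and 4.29. EPB41L4A-AS1, the host of SNORA13, had 178 and 251 reads (0.54, 0.26 to 0.83).
SNHG11, the host of SNORA60 and SNORA71E, had 227 and 288 reads (0.39, 0.14 to 0.65). ZFAS1, the host of the SNORD12 family, had 1991.65 and 2133.30 reads (0.15, 0.06 to 0.24). ZFAS1 lay below the median of all genes, and its value turned negative with the TMM scaling (-0.08), with the median of ratios (-0.06) and relative to genes of like length (-0.23).

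Lower in Huh7-si, with an interval below 0, were 6 hosts, each with over 1000 reads. SNHG29, which hosts SNORD49A, SNORD49B and SNORD65, had 9289.87 reads in Huh7-NC against 6752.97 in Huh7-si, for a log2 fold change of -0.41 (-0.46 to -0.37). SNHG5, the host of the SNORD50 pair, had 1580.64 and 1192.07 reads (-0.36, -0.47 to -0.25). SNHG16, the host of SNORD1A to SNORD1C, had 2958.61 and 2269.60 reads (-0.33, -0.41 to -0.25). These 3 were the farthest below 0 among the hosts.
SNHG32, the host of SNORD48 and SNORD52, had 3115.30 and 2500.70 reads (-0.27, -0.34 to -0.19). SNHG6, the host of SNORD87, had 2569.71 and 2091.87 reads (-0.25, -0.33 to -0.16). SNHG7, the host of SNORA17A and SNORA17B, had 1299.47 and 1060.44 reads (-0.24, -0.36 to -0.13). Of these 6, SNHG7 hosts H/ACA snoRNAs and the other 5 host C/D snoRNAs alone. All 6 stayed below 0 with every other scaling, by TPM and relative to genes of like length.

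The interval included 0 for 9 hosts. SNHG15, the host of SNORA9, was the best measured of them, with 1561 and 1605 reads (0.09, -0.01 to 0.19), and SNHG8, the host of SNORA24, had 439.77 and 394.65 reads (-0.11, -0.31 to 0.09). SNHG30, the host of SNORD7, had 134 and 136 reads (0.07, -0.28 to 0.43). The intervals of SNHG15 and SNHG8 leave no room for a 2-fold difference by counting error.
The remaining 6 were low. SNHG10, the host of SCARNA13, had 71 and 90 reads, and SNHG26, the host of SNORD93, had 66.01 and 75.21. SNHG21, the host of SCARNA15, had 32.94 and 43.59 reads, and SNHG9, the host of SNORA78, had 33 and 31. SNHG31 had 10 and 20 reads and SNHG25, the host of SNORD104, had 6 and 12. The last pair was just past 2-fold, with intervals of -0.11 to 2.31 and -0.48 to 2.75, so a 2-fold difference was not detectable at this depth. SNHG18 and SNHG27 had 0 reads in both libraries, where 3 reads, the limit that a count of 0 allows, correspond to 0.131 and 0.136 CPM in the 2 libraries, and SNHG28 had 0 and 1.

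The direction of the difference was unevenly spread over the level of the hosts, and the same held for all genes. Of the 13 hosts with at least 1000 reads over both libraries, 6 were higher and 6 lower with an interval on one side of 0, none was called, and the median log2 fold change was 0.09. Of all 7454 genes with as many reads, 44.6% were higher and 35.8% lower at p under 0.05 and any fold, 3.38% were called higher, and the median was 0.05. With the TMM scaling, 5 of the 13 were higher and 7 lower. Of the 16 hosts with at least 10 but under 1000 reads, 14 had a value above 0, 8 had an interval above 0, 0 had an interval below 0, and the median was 0.58. All 4 called hosts were among these 16. Of all 10467 genes in this range of reads, 39.9% were higher and 8.83% lower at p under 0.05 and any fold, 19.8% were called higher, and the median was 0.38.
Among the 23 hosts with at least 100 reads, 12 were higher and 6 lower at p under 0.05 and any fold. Of all 12978 genes with at least 100 reads, 46.1% were higher and 26.2% lower by the same rule. Of the 23, 3 were called higher and 0 lower, where 7.45% of the 12978 genes were called higher and 0.393% lower. The median of the 23 was 0.39, against 0.14 for all genes and 0.37 for 742 long noncoding genes of the same depth.

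Scaled to total reads, the sum over the hosts hardly moved. The 29 hosts together took 33742.41 and 32703.89 reads, which is 1477 and 1481 CPM, a log2 ratio of 0.00, whereas the summed reads of the long noncoding genes were at 0.46. SNHG29 held 27.5% of the hosts' reads with the control siRNA and 20.6% after knockdown. SNHG1 moved from 7.30% to 10.2% and GAS5 from 7.55% to 10.2%. The makeup of the host reads therefore shifted while their total was level on this scale. The summed reads of all genes with at least 1000 reads were also nearly level, at -0.02. With TMM every log2 value, that of the sum included, moves by -0.22, and with the median of ratios by -0.21.

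Levels were compared between hosts by TPM, which is scaled for length. In Huh7-NC the order was SNHG29 (634.70 TPM), SNHG6 (433.55), GAS5 (289.41), SNHG32 (263.81), ZFAS1 (169.30), SNHG5 (152.47), SNHG1 (138.73), SNHG8 (120.16) and SNHG15 (101.66). SNHG29 was at rank 238 and SNHG6 at rank 335 of all genes by TPM in that library. In Huh7-si the order began with SNHG29 (517.52 TPM), SNHG6 (378.52), GAS5 (360.75), SNHG32 (248.47), ZFAS1 (209.20) and SNHG1 (181.43). SNHG1 thus came ahead of SNHG5 (121.05), which it followed in Huh7-NC, and stayed ahead of SNHG8 (97.52). SNHG25 (141.46), with few reads, lay between SNHG1 and SNHG5. Without replicates, no neighbours in this order can be said to differ.
The TPM columns gave 5 hosts past 2-fold: SNHG22, SNHG4, SNHG25, SNHG31 and SNHG19. SNHG12 was below 2-fold by TPM, with 14.69 and 25.91. SNHG25, with a listed length of 290 bases, had 48.23 and 141.46 TPM on 6 and 12 reads. The median of the 29 hosts by TPM was 0.32 on the log2 scale, against 0.39 for all genes, so on this scale the hosts lay slightly below the median gene.

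**Figure D2:**
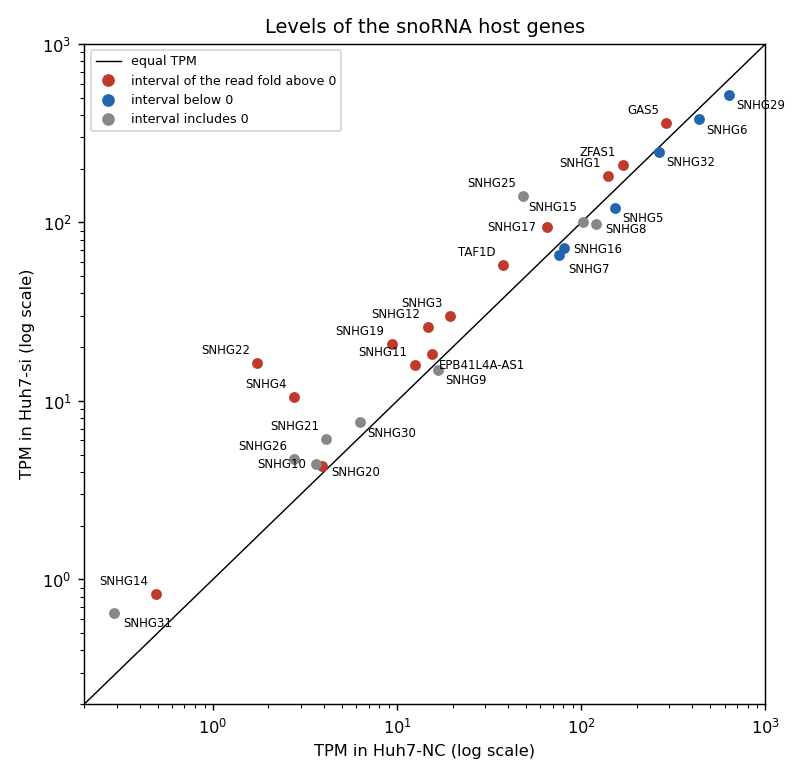
TPM in Huh7-NC (horizontal, log scale) and in Huh7-si (vertical, log scale), 1 point per host. The line marks equal TPM and the colour shows whether the 95% interval of the read-based fold lies above, below or across 0. The lower hosts sit in the upper range of level (SNHG7, the lowest of them, at 75.91 TPM in Huh7-NC), and SNHG22 and SNHG4 stand farthest above the line.

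The listed gene length moved with the fold change over all genes. Genes with at least 10 reads were put in 20 length bins, and their median was -0.17 on the log2 scale for genes of 702 to 962 bases and 0.67 for genes of at least 8484 bases. Relative to genes of like length, the median of the hosts was 0.20. SNHG22 (3.19), SNHG4 (1.36), SNHG19 (1.29) and SNHG12 (0.96) kept most of their difference, and SNHG14 was at 0.13 in place of 0.81. Of the 6 lower hosts, SNHG5 (-0.79), SNHG29 (-0.63), SNHG16 (-0.55), SNHG7 (-0.33) and SNHG6 (-0.29) stood farther below genes of like length than below 0, and SNHG32 (-0.13) stood closer to them. The part of length in these differences was not tested. For SNHG8 and SNHG10 the listed length exceeds the GENCODE span of the gene, so their place among genes of like length is uncertain.

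**Figure D3:**
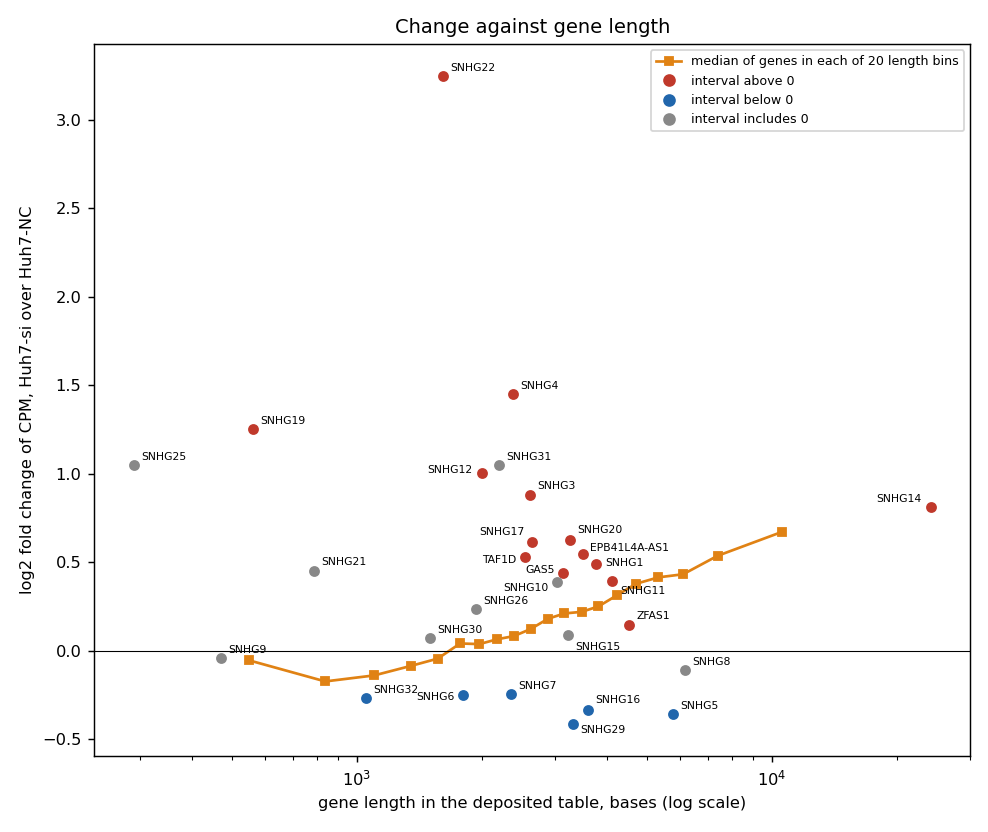
Log2 fold change of CPM, Huh7-si over Huh7-NC (vertical), against the gene length in the deposited table in bases (horizontal, log scale). Squares joined by a line are the medians of all genes with at least 10 reads in 20 length bins, and points are the 29 hosts, coloured by whether the 95% interval lies above, below or across 0. SNHG5, SNHG16 and SNHG29 lie below the line at 3310 to 5764 bases, and SNHG19 lies above it at 562 bases. SNHG8 lies below the line at a listed 6166 bases, which is longer than its GENCODE span (chr4:118278709-118279823).

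By the class of snoRNA inside them, the hosts differed in median. The 12 hosts of C/D snoRNAs alone had a median log2 fold change of 0.11, with 4 intervals above and 5 below 0. The 10 hosts of H/ACA snoRNAs alone had a median of 0.47, with 5 above and 1 below. The 4 hosts of Cajal body RNAs (SNHG22, SNHG20, SNHG21 and SNHG10) all had values above 0 (median 0.54), and 2 of them had an interval above 0. The 3 hosts of both kinds (SNHG12, TAF1D and GAS5) had a median of 0.53 with every interval above 0. These are small groups of unequal depth, and their differences were not tested.

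The snoRNAs themselves were almost unread in these libraries. RefSeq places 154 distinct snoRNA and Cajal body RNA names inside the hosts, 83 of them in SNHG14, and 143 of the names are in the table in 150 rows. Of these rows 10 had any read, with 2.95 and 16.61 reads in all in the 2 libraries, and 0 were called in either direction. Among all 553 snoRNA and Cajal body RNA rows, 38 had reads, which summed to 23.13 and 93.14. The level of the snoRNAs was therefore not measured here.

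Several hosts share a start region with a gene on the other strand. By the GENCODE starts, a protein-coding gene starts within 1000 bases of the host on the opposite strand for 8 hosts. SNHG1 and SLC3A2, the heavy chain of the amino acid transporter LAT1, start 188 bases apart, and SLC3A2 had 5368 and 7163 reads (log2 fold change 0.47, 0.41 to 0.52), beside 0.49 for SNHG1. SNHG22 and ACAA2, a mitochondrial thiolase, start 63 bases apart, and ACAA2 had 1741 and 1474.74 reads (-0.19, -0.29 to -0.09), beside 3.25 for SNHG22. SNHG19 and TRAF7 start 340 bases apart, and TRAF7 was at -0.13 beside 1.25. The first pair had nearly equal values, and the other pairs had opposite signs.
ZFAS1 and ZNFX1, a helicase with a zinc finger domain, start 248 bases apart, and ZNFX1 had 756.01 and 1190.05 reads (0.70, 0.57 to 0.84), above the 0.15 of ZFAS1. GAS5 was at 0.44 and ZBTB37 at 0.57, TAF1D at 0.53 and the Mediator subunit MED17 at 0.29, and SNHG31 at 1.05 and BARD1 at 0.41. SNHG9 was at -0.04 (-0.80 to 0.71) and the ribosomal protein gene RPS2 at -0.45. The host had the higher value in 6 of the 8 pairs, and the signs were the same in 6 and opposite in 2. From the RefSeq start, MED17 lies 42732 bases from TAF1D, and without this pair the host was higher in 5 of 7 and the signs were the same in 5. SNHG9 has no RefSeq start here, and the other 6 pairs lie within 1000 bases by either start. ZBTB37, ZNFX1 and MED17 also overlap their host, and whether the counting used strand was not given in the sources used here, so reads of such a pair cannot be told apart.

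**Figure D4:**
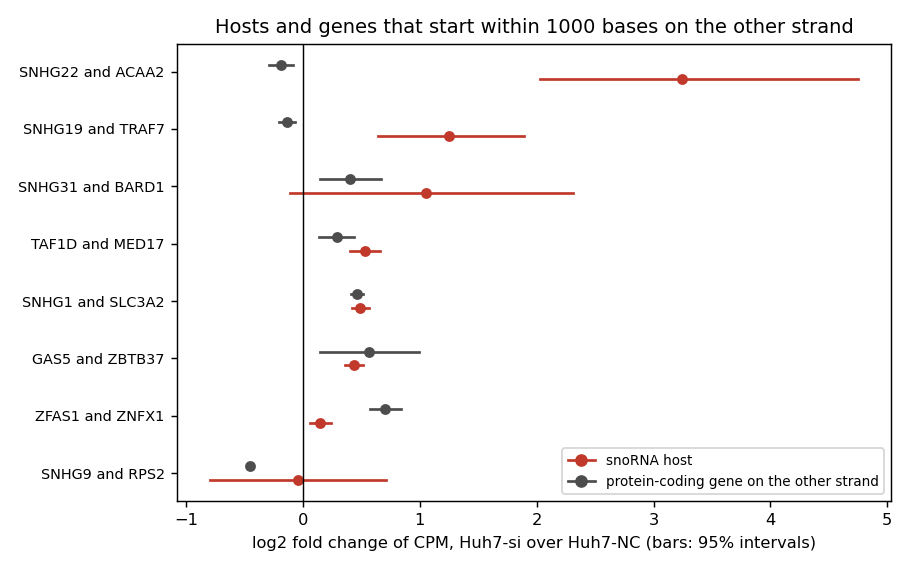
Log2 fold change of CPM, Huh7-si over Huh7-NC (horizontal), of 8 hosts and of the protein-coding gene that starts within 1000 bases on the other strand by the GENCODE starts; bars are 95% exact intervals for counting error. SNHG1 and SLC3A2 lie side by side at 0.49 and 0.47, and SNHG22 and SNHG19 stand apart from ACAA2 and TRAF7, which lie below 0.

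In all, 17 of the 29 hosts overlap another gene with at least 10 reads on either strand. SNHG3 overlaps RCC1, a chromatin factor of mitosis, on the same strand, and RCC1 had 3451.19 and 2530.53 reads (-0.40), opposite in sign to SNHG3. SNHG20 overlaps SEC14L1 on the same strand (0.34), SNHG32 overlaps AL671762.1 (0.45) and SNHG21 overlaps AC105339.2 (1.67). On the opposite strand, SNHG12 overlaps TRNAU1AP (-0.05) and SNHG10 overlaps GLRX5 (-0.63). Also on the opposite strand, partners called in the direction of their host were LRRC75A with SNHG29 (15.13 and 4.03 reads, -1.86), AC015802.6 with SNHG16 (16.87 and 4.76 reads, -1.78) and CEP295 with TAF1D (249.67 and 484.68 reads, 1.01). Without the 17, the called hosts came down to SNHG19 and the median over the other 12 was 0.44, a choice made after seeing the data. The overlaps therefore touch 3 of the 4 calls.

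The protein-coding snoRNA hosts, many of them ribosomal protein and translation factor genes, had a lower median than the hosts named by the rule. All 38 had over 1000 reads over both libraries, and 0 were called in either direction. Of them, 6 had an interval above 0 and 28 below 0, and the median log2 fold change was -0.42. Among all 7454 genes with at least 1000 reads, 44.6% were higher and 35.8% lower at p under 0.05 and any fold. Calls were few among those genes, at 3.38% higher and 7 genes lower, and their median was 0.05. The 13 hosts named by the rule with at least 1000 reads had a median of 0.09, against 0.44 for all 29. The summed level of the 38 protein-coding hosts was 33170 CPM in Huh7-NC and 24598 in Huh7-si. CHD8, a chromatin remodeller, had the highest value with 1866 and 2713 reads (0.59), and RPL23A the lowest with 11685.81 and 7109.94 (-0.67). NOP56 and DKC1 are on this list and on the next. Values of the list overlap the range of the 6 lower hosts described above, and the difference between the lists was not tested.

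The genes of the proteins that bind the snoRNAs were mostly lower in reads scaled to the library total. The proteins themselves were not measured. Of the genes of 8 core proteins of the snoRNA particles, 7 had an interval below 0, none was called, and the median was -0.43. Among all genes with at least 1000 reads, 35.8% were lower at p under 0.05 and any fold, and calls were few (3.38% higher). FBL (fibrillarin), the methyltransferase of C/D particles, had 8677 and 5872 reads (-0.51, -0.56 to -0.47). NHP2, a protein of H/ACA particles, had 3160.23 and 2003.47 (-0.61), the lowest of the list, and DKC1 (dyskerin), the pseudouridine synthase, had 4020 and 3512.16 (-0.15). NOP56 was the exception, with 11053.26 and 10947.39 reads (0.04, -0.003 to 0.07). By TPM, DKC1 (93.98 and 103.72) and NOP56 (520.34 and 601.21) were higher in Huh7-si and the others were lower. The list median by TPM was -0.27 on the log2 scale.
Of 13 assembly and processing factors, 3 had an interval above and 5 below 0, none was called, and the median was -0.10. Among all genes with at least 100 reads, 46.1% were higher and 26.2% lower at p under 0.05 and any fold, and 7.45% were called higher. RUVBL2, an ATPase of the assembly complex, was lowest with 6171 and 4240.96 reads (-0.49), and NOLC1, a phosphoprotein that binds the particles in nucleoli and Cajal bodies, was highest with 3658 and 4426 (0.32). DBR1, the debranching enzyme that opens the spliced intron, was nearly level with 693 and 647 reads (-0.05, -0.21 to 0.11).

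Genes of nonsense-mediated decay had values on both sides of 0. Of 17, 13 had an interval above and 4 below 0, and the median was 0.21, equal to the median of all genes to 2 decimals. Among all genes with at least 100 reads, 46.1% were higher and 26.2% lower at p under 0.05 and any fold, and 7.45% were called higher. SMG1, the kinase that phosphorylates UPF1, had 1046.12 and 2249.77 reads (1.15, 1.05 to 1.26), and the exonuclease XRN1 had 236 and 528.15 (1.21, 0.99 to 1.44). Both were called higher. With the TMM scaling neither was called and the list median was -0.02, and with the median of ratios XRN1 was still called. SMG1 and XRN1 are in the bin of genes of at least 8484 bases, whose median was 0.67. Relative to genes of like length, the list median was -0.14.
UPF1, the central helicase of the pathway, had 6891 and 8072 reads (0.28, 0.23 to 0.32). The 4 lower genes were MAGOH (-0.53), EIF4A3 (-0.50), RBM8A (-0.38) and MAGOHB (-0.26), all proteins of the exon junction complex. They were named after their values were seen, and CASC3, of the same complex, was at 0.21 (0.13 to 0.29).

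Of 14 genes of RNA polymerase I transcription, which makes the ribosomal RNA that snoRNAs modify, 6 had an interval above and 4 below 0. Their median was 0.02, and it was negative with the TMM scaling (-0.20). Among all genes with at least 100 reads, 46.1% were higher and 26.2% lower at p under 0.05 and any fold, and 7.45% were called higher. TAF1C, a partner of TAF1D in SL1, was called higher with 1080 and 2442 reads (1.23, 1.12 to 1.33). POLR1H, a small subunit of the polymerase, was lowest with 343.55 and 248.43 reads (-0.42).

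**Figure D5:**
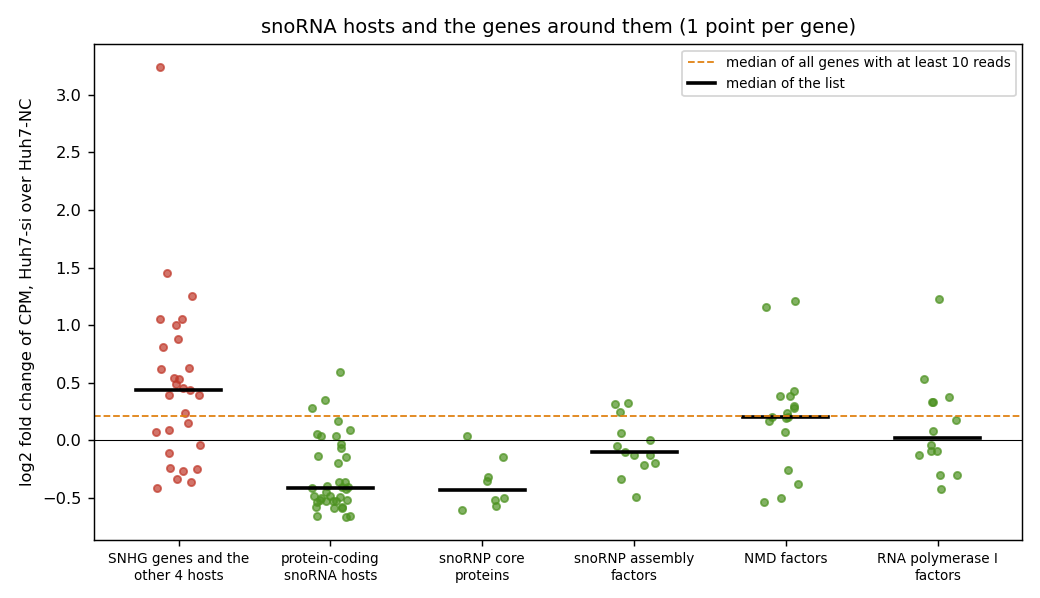
Log2 fold change of CPM, Huh7-si over Huh7-NC (vertical), 1 point per gene with at least 10 reads, for the 29 hosts and 5 related lists; points are spread sideways at random. Thick bars are list medians and the dashed line is the median of all genes (0.21). The hosts' median is 0.44 (0.09 for the 13 with at least 1000 reads), and the medians of the protein-coding hosts (-0.42) and the core particle proteins (-0.43) lie below 0.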

How the data were processed

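RNA-seq of 1 Huh7-NC and 1 Huh7-si library of total RNA was analyzed. The submitters' processing notes name TopHat2 2.0.12, Bowtie2 2.0.6 and GRCh37 without their roles; the counting tool, annotation and strandedness are not given in the sources used here. The deposited table gives, per gene and library, an estimated count (not scaled, partly fractional) and a TPM value made by the authors. The authors' deposited fold (ratio), log2 fold change, p-value and adjusted p-value columns hold their own comparison and were not used. There were 0 other columns of per-sample values.

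Estimated counts were rounded to whole reads for a two-sided exact binomial test against the ratio of library totals, fitted on all 26379 genes with reads, with 95% Clopper-Pearson intervals. A fold of 2 and an unadjusted p of 0.05, the study's thresholds, defined calls. Medians used a pseudocount of 0.5 reads and genes with at least 10 reads over both libraries. Every host with at least 10 reads was named. Of the other lists, the called genes and otherwise the highest and lowest were named, and others were named for their known role after their values were seen. Gene types, positions and neighbours came from GENCODE release 29 (GRCh38), which holds 94.8% of the table's identifiers and has the same symbol for 28 of the 32 hosts. Promoters and hosted snoRNAs came from RefSeq (GRCh38.p14), matched by symbol and by position.

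The hosts and the gene lists were chosen with earlier results of these data known. The test was tried on simulated reads. Alternatives were 3 scalings (TMM from edgeR, the median of ratios from DESeq2, the total without the 100 top genes), TPM, a pseudocount of 1 CPM, genes of like length (20 bins), a fold of 1.5, read filters, Benjamini-Hochberg adjustment and the exact test of edgeR, assuming 0.1 or 0.4 as biological coefficient of variation. The software was R 4.3.3, DESeq2 1.42.0, edgeR 4.0.16, Python 3.11.15, SciPy 1.17.1, NumPy 2.4.6, matplotlib 3.10.9 and pandas 2.3.3.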

Additional observations from a re-analysis of the deposited data

How the results depend on the processing

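The number of hosts called higher was 4. It was 3 with TMM, with the median of ratios, without the 100 top genes and when each library had to hold 10 reads, and 4 with Benjamini-Hochberg adjustment and with a biological coefficient of variation of 0.1. It was 8 at a fold of 1.5 (SNHG3, SNHG14, SNHG17 and SNHG20 in addition) and 1 (SNHG22) with a coefficient of 0.4. Without the hosts that overlap another gene, chosen after seeing the data, it was 1 (SNHG19). No host was called lower under any of these. Relative to the total-read scaling, log2 fold changes moved by -0.22 with TMM, -0.21 with the median of ratios and -0.03 without the 100 top genes. For the hosts, the median of 0.44 was 0.21 with TMM, 0.23 with the median of ratios, 0.41 without the 100 top genes, 0.31 with 1 CPM added, 0.32 by TPM, 0.20 relative to genes of like length and 0.39 at 100 reads or more, where the median of all genes was -0.02 with TMM and 0.00 with the median of ratios.

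The 2742 genes called higher became 1822 with TMM, 4634 at a fold of 1.5, 1424 with 10 reads in each library and 687 with a coefficient of 0.4. The 270 called lower became 572 with TMM, 542 with the median of ratios, 756, 107 and 76. Of 174 values of single hosts, 10 changed sign. They were SNHG15 (-0.14 with TMM, -0.12 with the median of ratios, -0.017 by TPM, -0.12 relative to like length), ZFAS1 (-0.076, -0.059 and, relative to like length, -0.23), SNHG30 (-0.15 and -0.14) and SNHG9 (0.014 relative to like length). The cause was not tested. No paired analysis was possible because each condition has 1 library, and for the same reason no replicate could be left out. Low hosts are limited by depth: at 6 and 12 reads the interval of SNHG25 spans 0.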
